A study of Mus musculus with 15 samples.

Results

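The genes described here are 8 genes of iron absorption in mouse ileum: Slc11a2, Slc40a1, Cybrd1, Heph, Tfrc, Fth1, Ftl1 and Epas1. They were chosen by name, as genes through which enterocytes take up, store, export or sense iron, since polyphenols bind iron. All 8 were found among the 17752 genes listed in at least 1 mouse, and all 8 passed the filter on low counts that left 14386 genes for testing. Ileal tissue was taken from 15 female C57BL/6 mice (C57BL/6JOlaHsd in the methods of the study), labelled as 8 weeks old, in 3 groups of 5. Every mouse was gavaged every 2nd day for 10 days. The water group received the vehicle. The low PAC and high PAC groups received 200 mg/kg of proanthocyanidins (PAC), which are flavan-3-ol polymers, prepared from grape. The 2 preparations differed in molecular weight, that is, in the mean degree of polymerization of the chains. The group labelled high PAC is the one that the methods of the study name medium mDP PAC (mDP, mean degree of polymerization). All mice were of 1 sex and strain and ate a purified diet, whose iron content is not given in the sources used here.

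In the proximal gut, ferric iron is reduced at the brush border by Cybrd1 (duodenal cytochrome b) and carried into the cell by Slc11a2 (DMT1, divalent metal transporter). Iron that is not stored in ferritin, built of Fth1 and Ftl1 chains, leaves through Slc40a1 (ferroportin) and is oxidized by Heph (hephaestin) for loading onto transferrin. Tfrc, the transferrin receptor, brings transferrin-bound iron into cells, mainly dividing ones. Epas1 encodes HIF-2alpha, a hypoxia-inducible transcription factor that is known to raise Slc11a2, Cybrd1 and Slc40a1 transcription in iron deficiency. These steps are known mainly from the duodenum, whereas the tissue here is ileum.

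Several of these mRNAs carry an iron-responsive element (IRE), a short hairpin bound by iron regulatory proteins when iron is scarce. In a 5′ UTR the bound hairpin blocks translation, and in the 3′ UTR of Tfrc it protects the mRNA from decay. By this mechanism the amount of Tfrc mRNA itself follows cell iron, whereas ferritin is controlled mainly at translation, which RNA sequencing does not see. The elements are shown because these 4 mRNAs hold the classical form of it. An isoform of Slc11a2 and the Epas1 mRNA are also known to carry IREs, of another form. They are 27 bases long, 5′ to 3′ on the mRNA strand, read from the GENCODE transcripts of GRCm38, the build of the files (mm10), with the 6-base loop in capitals.
Fth1, 5′ UTR, chr19:9982733-9982759, plus strand: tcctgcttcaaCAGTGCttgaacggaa
Ftl1, 5′ UTR, chr7:45459780-45459806, minus strand: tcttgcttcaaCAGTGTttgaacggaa
Slc40a1, 5′ UTR, chr1:45925466-45925492, minus strand: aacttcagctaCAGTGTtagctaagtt
Tfrc, 3′ UTR, chr16:32631220-32631246, plus strand: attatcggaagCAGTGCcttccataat
Tfrc, 3′ UTR, chr16:32631599-32631625, plus strand: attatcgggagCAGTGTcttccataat
Tfrc, 3′ UTR, chr16:32631664-32631690, plus strand: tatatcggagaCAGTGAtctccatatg
Tfrc, 3′ UTR, chr16:32631711-32631737, plus strand: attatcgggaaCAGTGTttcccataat

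The 17-base motif searched was a C, 5 bases, the loop CAGTGN, and 5 bases pairing with the first 5, on the mRNA strand only. It was found in the 5′ UTR of 21 of 20512 coding genes (0.102%) and in the 3′ UTR of 108 (0.527%). Fth1, Ftl1 and Slc40a1 had 1 match each and Tfrc had 4. In the UTRs of Slc11a2, Cybrd1, Heph and Epas1 no stretch with these letters was found, which says nothing of elements of another form.

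The libraries held between 15963086 and 17903886 expected counts (read pairs assigned to genes, estimated where a pair could come from more than 1). Levels are given as FPKM (fragments mapped to a gene, scaled to its transcript length and to the depth of the library), which can be compared between genes. Fold changes come from edgeR on the counts, scaled by TMM, so a difference in FPKM means can differ from the fold change beside it in size and, where it is small, in sign. Adjusted p-values are Benjamini-Hochberg values over all 14386 genes. Distal ileum markers (Fabp6, Slc10a2, Slc51b, Fgf15) were high in every mouse, summing to 4663 to 11243 FPKM, against 175 to 1039 FPKM for proximal markers (Gata4, Fabp1, Lct, Apoa4). B cell markers summed to between 5.5 and 214 FPKM, so some pieces of tissue held much more lymphoid RNA than others. High PAC mouse 3 stood apart. Its root mean square deviation from its group mean was 0.416 on the log2 scale, against 0.227 to 0.314 in the other mice. It had the lowest sum of enterocyte markers (5692 FPKM) and the highest sums of proliferation (184), macrophage (177), endothelial (61.1) and erythroid (184 FPKM) markers. Its sum of distal ileum markers, 11243 FPKM, was also the highest. For many of the results that it moved, values without it are also given.

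The question put to these genes was whether either PAC preparation changed their expression. None of the 8 differed between any 2 groups at an adjusted p under 0.05 by edgeR's quasi-likelihood test. In the high PAC against water comparison such calls made up 0.0139% of the genes tested (2 genes), and in the low PAC against water and high PAC against low PAC comparisons 0.0%. At an unadjusted p under 0.05, 1 of the 8 (Heph, lower) differed between high PAC and water, where 14.8% of all genes did and 10.4% were lower. None did between low PAC and water (3.61% of all genes) or between high and low PAC (3.89%). DESeq2 and limma on log2(FPKM + 0.1) likewise called none of the 8 in high PAC against water, where they called 0.779% and 0.0626% of all genes. Each put 1 of the 8 (Heph, lower) at an unadjusted p under 0.05, beside 14.9% of all genes by DESeq2 (8.77% lower) and 19.4% by limma (3.67% lower). Over the 23 settings tried in that comparison, Heph was under an unadjusted 0.05 in 21 and Slc11a2 in 4, while the share of all genes under it ran from 10.6% to 19.4%. No gene of the 8 had FPKM ranges that failed to overlap between 2 groups, while 4.64%, 0.605% and 0.737% of all genes did in the 3 comparisons.

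The median log2 fold change of the 8 genes was -0.024 in high PAC against water (4 higher, 4 lower), beside 0.0024 for all genes tested. It was -0.017 in low PAC against water (3 higher, 5 lower), beside -0.014, and -0.05 in high against low PAC, beside 0.005. Upper quartile normalization put the high PAC against water medians at 0.041 for the 8 genes and 0.066 for all genes, and limma on log2(FPKM + 0.1) at 0.072 and 0.090, so the sign of such small values follows the scaling. The intervals show how large a change remained possible. For 7 of the 8 genes the 95% confidence interval of the fold change lay inside a 2-fold change in either direction in all 3 comparisons. Over these 7 genes the bounds ran from 0.615 to 1.32 in high PAC against water and from 0.697 to 1.27 in low PAC against water. Slc40a1 was the exception, with intervals reaching 2.12-fold and 2.16-fold higher than water.

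**Figure D1:**
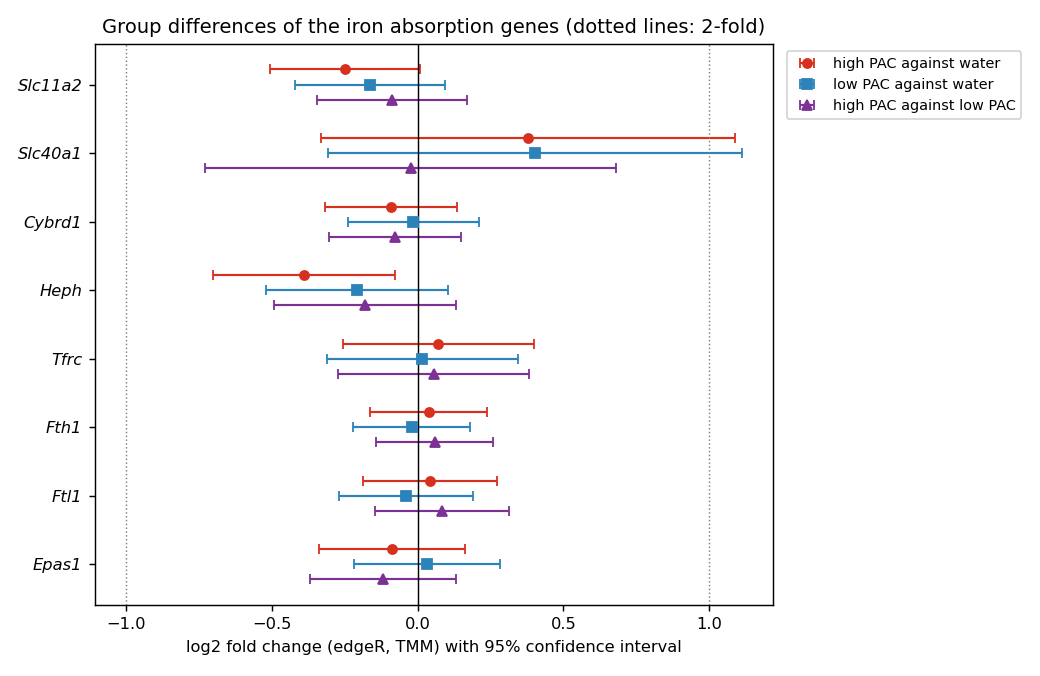
Log2 fold change of each gene from edgeR, with its 95% confidence interval, for high PAC against water (circles), low PAC against water (squares) and high PAC against low PAC (triangles), 5 mice per group; dotted lines mark a 2-fold change. The interval of Heph in high PAC against water is the only 1 that leaves out 0, and the intervals of Slc40a1 are the widest.

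Uptake at the brush border was described by Slc11a2 and Cybrd1. Slc11a2 (gene identifier 18174, chr15:100387898-100425072, minus strand) was at 14.7, 12.1, 15.4, 14.2 and 13.9 FPKM in water mice 1 to 5. It was at 12.8, 14.9, 12.6, 13.8 and 11.2 FPKM in the low PAC mice and at 12.5, 13.0, 10.95, 15.6 and 11.7 FPKM in the high PAC mice. The groups overlapped: the highest value of all 15 mice, in high PAC mouse 4, stood in the group with the lowest mean. The means were 14.05 ± 1.21 (SD, n = 5) in water, 13.1 ± 1.38 in low PAC and 12.7 ± 1.78 FPKM in high PAC. High PAC against water gave a log2 fold change of -0.25 (SE 0.12, edgeR adjusted p = 0.352) and low PAC against water one of -0.16 (SE 0.12, edgeR adjusted p = 0.976). Without high PAC mouse 4 the log2 fold change of high PAC was -0.35 (edgeR adjusted p = 0.172, the smallest of any gene of the 8 under any setting tried), and without high PAC mouse 3 it was -0.16 (edgeR adjusted p = 0.598). Without low PAC mouse 2 the low PAC difference was -0.24, and without low PAC mouse 5 it was -0.10. The transcript length that the files give for Slc11a2 varied between mice from 3544 to 3765 bases, which lies between the 3025 and 4415 bases of its 2 annotated transcripts that carry RefSeq names, so more than 1 isoform entered its count.

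Cybrd1 (73649, chr2:71117923-71142926, plus strand) was the lowest of the 8, at 2.54, 3.40, 2.49, 3.35 and 3.47 FPKM in water. Low PAC mice had 2.92, 3.06, 3.65, 2.68 and 3.32 FPKM, and high PAC mice 2.89, 3.28, 2.98, 2.94 and 3.17 FPKM. The 2 lowest values were both in the water group, and all high PAC values fell inside the range of that group. Against water the log2 fold change was -0.09 in high PAC (SE 0.11, edgeR adjusted p = 0.688) and -0.01 in low PAC (SE 0.11, edgeR adjusted p = 0.992). Its 220 to 331 expected counts per mouse were not whole in any of the 15 mice. The count was thus an estimate, and its level is uncertain to that extent. Where the rest of the divided reads was assigned is not given in the sources used here. The sign of both differences turned positive, at 0.014 and 0.041, when FPKM values were tested in place of TMM-scaled counts.

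Export was described by Slc40a1 and Heph. Slc40a1 (53945, chr1:45908068-45926523, minus strand) was at 13.2, 22.6, 15.8, 10.8 and 10.5 FPKM in water. It was at 24.1, 34.7, 12.3, 14.2 and 14.2 FPKM in low PAC and at 15.4, 11.3, 28.2, 31.0 and 15.3 FPKM in high PAC. In each PAC group 2 mice exceeded every water mouse while the other 3 lay within the water range. The means were 14.6 ± 4.96 (SD, n = 5) in water, 19.9 ± 9.47 in low PAC and 20.2 ± 8.74 FPKM in high PAC. On the log2 scale the difference from water was 0.38 in high PAC (SE 0.33, edgeR adjusted p = 0.585) and 0.40 in low PAC (SE 0.33, edgeR adjusted p = 0.976). Single mice moved these values. Without low PAC mouse 2 the low PAC difference was 0.08, without high PAC mouse 4 the high PAC difference was 0.16, and without water mouse 2 the differences were 0.58 for high PAC and 0.61 for low PAC.

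Slc40a1 also varied most from mouse to mouse. Its standard deviation within groups was 0.57 on the log2(FPKM + 0.1) scale, against 0.12 to 0.27 for the other 7 genes. Of the 4433 genes whose mean FPKM lay within 2-fold of its own, 98.1% had a smaller standard deviation. Its lowest and highest values, 10.5 FPKM in water mouse 5 and 34.7 FPKM in low PAC mouse 2, differed 3.29-fold.

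Heph (15203, chrX:96455359-96574485, plus strand), the most abundant of the 8 after ferritin, was at 76.4, 75.8, 86.7, 72.6 and 64.8 FPKM in water. Low PAC mice had 71.6, 75.0, 63.4, 52.2 and 76.8 FPKM, and high PAC mice 66.4, 65.7, 41.6, 72.0 and 62.0 FPKM. All 5 high PAC values lay below 4 of the 5 water values, and 2 of them lay below all 5. The means were 75.2 ± 7.90 (SD, n = 5) in water, 67.8 ± 10.1 in low PAC and 61.5 ± 11.7 FPKM in high PAC. For high PAC against water the log2 fold change was -0.39 (SE 0.15, interval -0.70 to -0.08), with an unadjusted p of 0.0181 and an adjusted p of 0.268 by edgeR. Permuting the 10 log2(FPKM + 0.1) values over all splits into 5 and 5 gave an exact two-sided p of 0.0476, the smallest possible being 0.0079. With 1 of the 10 mice left out in turn, this exact p was 0.05 or more in 6 of 10 sets, the largest being 0.119 without water mouse 3. By this test 17.5% of all genes had a p under 0.05 here, and Heph was the only one of the 8. In the low PAC against water and high against low PAC comparisons none of the 8 did, where 4.74% and 4.5% of all genes did. In low PAC the log2 fold change was -0.21 (SE 0.15, edgeR adjusted p = 0.976), and between high and low PAC it was -0.18 (SE 0.15, edgeR adjusted p = 0.896). Without low PAC mouse 4 the former was -0.098, and without high PAC mouse 3 the latter was -0.052.

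The difference in Heph did not pass the threshold, and its size leaned on 1 mouse. Without high PAC mouse 3 the log2 fold change of high PAC against water was -0.24 (edgeR adjusted p = 0.468). Enterocyte markers (Vil1, Alpi, Fabp2, Apob, Krt20, Anpep), all detected in every mouse, also had lower sums in the PAC groups: they summed to 9307 to 12187 FPKM in water, 7662 to 11009 FPKM in low PAC and 5692 to 10225 FPKM in high PAC. Their score ran from 0.043 to 0.30 in water and from -0.93 to 0.037 in high PAC, 2 ranges that did not overlap. The lowest sum and score were those of high PAC mouse 3, and the other 4 high PAC mice had sums of 8942 to 10225 FPKM and scores of -0.081 to 0.037. None of the 6 markers passed the adjusted threshold. Their part in the difference of Heph was not tested, and in bulk tissue fewer cells of a type and less RNA per cell cannot be told apart.

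**Figure D2:**
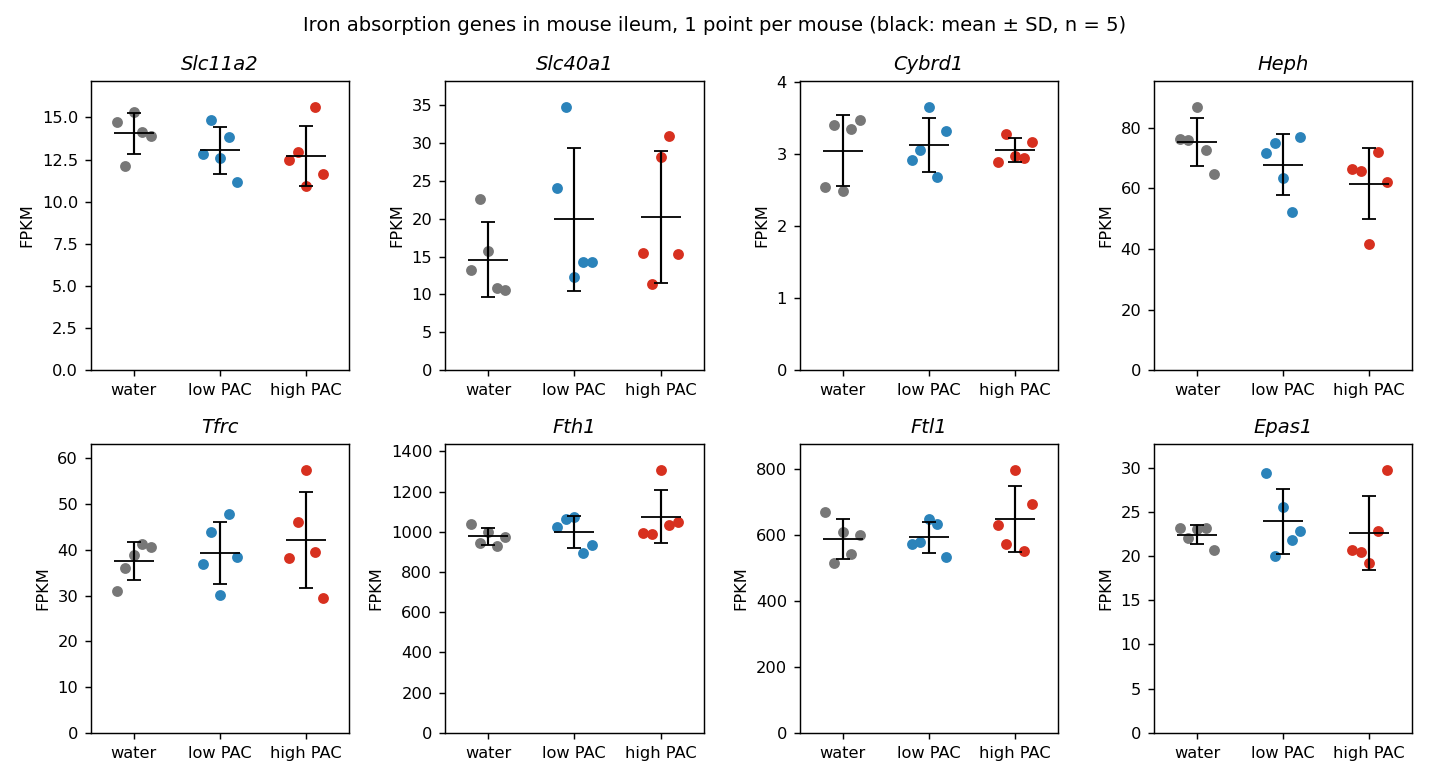
FPKM (vertical axes, from 0) of the 8 genes in each of the 15 mice, by group, with the mean and SD of 5 mice in black. The groups overlap in every panel, Slc40a1 spreads from 10.5 to 34.7 FPKM, and the mean of Heph is 75.2 in water and 61.5 FPKM in high PAC.

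Tfrc (22042, chr16:32608920-32632794, plus strand), whose mRNA is stabilized through its IREs, was at 31.1, 35.99, 38.8, 41.3 and 40.7 FPKM in water. It was at 36.8, 43.9, 30.2, 47.8 and 38.4 FPKM in low PAC and at 38.3, 46.0, 57.4, 39.6 and 29.4 FPKM in high PAC. Both the highest and the lowest value of all 15 mice were in the high PAC group. Compared with water, its log2 fold change was 0.07 in high PAC (SE 0.15, edgeR adjusted p = 0.846) and 0.02 in low PAC (SE 0.15, edgeR adjusted p = 0.996). Without high PAC mouse 3 the high PAC difference was -0.03. Its 95% interval, 0.837 to 1.32 times water in high PAC and 0.806 to 1.27 times water in low PAC, covered both small rises and small falls.

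The ferritin chains were by far the most abundant of the 8. Fth1, the heavy chain (14319, chr19:9980598-9985098, plus strand), was at 1039, 944, 998, 929.7 and 973 FPKM in water. It was at 1025, 1064, 1074, 895 and 935 FPKM in low PAC and at 995, 990.1, 1307, 1032 and 1047 FPKM in high PAC. High PAC mouse 3 lay far above the other 4 mice of its group, which ran from 990.1 to 1047 FPKM. The log2 fold change was 0.04 in high PAC (SE 0.09, edgeR adjusted p = 0.864) and -0.02 in low PAC (SE 0.09, edgeR adjusted p = 0.991). Without high PAC mouse 3 the high PAC difference was 0.0021. On the FPKM scale the high PAC mean was 1.1001 times that of water, and limma on log2(FPKM + 0.1) gave 0.13 for Fth1 in high PAC and 0.03 in low PAC (limma adjusted p = 0.449 and 0.978).

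Ftl1, the light chain (14325, chr7:45457944-45459884, minus strand), was at 669.7, 514, 609, 539.9 and 599 FPKM in water. Low PAC mice had 572, 578, 647, 631 and 532 FPKM, and high PAC mice 629, 573, 796, 550.5 and 694 FPKM. High PAC mice 3 and 5 exceeded every water mouse, and the rest fell inside the water range. The log2 fold change was 0.04 in high PAC (SE 0.11, edgeR adjusted p = 0.868) and -0.04 in low PAC (SE 0.11, edgeR adjusted p = 0.986). On the FPKM scale the high PAC mean was 1.11 times that of water, and limma gave 0.14 for Ftl1 in high PAC and 0.016 in low PAC (limma adjusted p = 0.471 and 0.989). Fth1 exceeded Ftl1 in all 15 mice, by 1.42 to 1.88 times, with a mean ratio of 1.67 ± 0.11 (SD, n = 5) in water, 1.69 ± 0.17 in low PAC and 1.67 ± 0.14 in high PAC. Both chains have near-identical processed copies in the mouse genome, but the expected counts of both were whole numbers in all 15 mice, so no estimated split of reads with another listed gene shows in them.

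Epas1 (13819, chr17:86753700-86833410, plus strand) was at 23.2, 22.03, 23.1, 23.2 and 20.6 FPKM in water. It was at 29.3, 20.1, 25.5, 21.8 and 22.8 FPKM in low PAC and at 20.7, 20.5, 19.2, 22.8 and 29.7 FPKM in high PAC. The water mice lay close together, and 1 high value in each PAC group, in low PAC mouse 1 and high PAC mouse 5, widened the spread there. Its log2 fold change from water was -0.09 in high PAC (SE 0.12, edgeR adjusted p = 0.735) and 0.03 in low PAC (SE 0.12, edgeR adjusted p = 0.989), although the FPKM mean of high PAC was 1.007 times that of water. The high PAC difference was -0.20 without high PAC mouse 5 (edgeR adjusted p = 0.349) and 0.0064 without high PAC mouse 3.

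The 2 preparations were given at the same dose and schedule, so they could be set against each other directly. High PAC less low PAC was between -0.18 (Heph) and 0.08 (Ftl1) on the log2 scale for the 8 genes, with no adjusted p below 0.896 by edgeR. These 2 differences were -0.052 and 0.021 without high PAC mouse 3. For Slc40a1 the difference ran from -0.24 without high PAC mouse 4 to 0.30 without low PAC mouse 2. Slc11a2 moved from -0.19 without high PAC mouse 4 to -0.0063 without low PAC mouse 2, and Epas1 from -0.24 without high PAC mouse 5 to -0.044 without low PAC mouse 1. All 8 intervals lay inside a 2-fold change, the widest being that of Slc40a1, 0.603 to 1.60 times low PAC. Outside Slc40a1 the bounds ran from 0.711 to 1.30. A missed threshold does not show that the preparations act alike.

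The order of the 8 genes by mean FPKM over 15 mice was Fth1 (1016), Ftl1 (609), Heph (68.2), Tfrc (39.7), Epas1 (23.0), Slc40a1 (18.2), Slc11a2 (13.3) and Cybrd1 (3.08 FPKM). The ranges over mice did not overlap between Fth1 and Ftl1, between Ftl1 and Heph, or between Slc11a2 and Cybrd1. The other neighbours overlapped. Heph exceeded Tfrc in 14 of 15 mice, Tfrc exceeded Epas1 in 14, Epas1 exceeded Slc40a1 in 11 and Slc40a1 exceeded Slc11a2 in 10. The exporter Slc40a1 was at 0.76 to 2.57 times the level of the importer Slc11a2. Slc11a2 in turn was at 3.37 to 6.16 times the level of the reductase Cybrd1.

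Variation between mice of a group was next set against markers of gut position and of the cell types that a piece of ileum holds. Each marker score was the mean of its genes' centred log2(FPKM + 0.1), and the position score was the proximal less the distal score. Group means were subtracted from genes and scores. The 8 genes and 8 scores gave 64 relations, of which 10 had an adjusted p under 0.05 (Benjamini-Hochberg over the 64, from 100000 permutations). On leaving out high PAC mouse 3, 3 of these 10 stayed past the threshold (Slc40a1 with position, Cybrd1 with smooth muscle, Tfrc with proliferating cells) and 7 did not, while Epas1 with endothelium (r = 0.84, permutation p = 0.00026, adjusted p = 0.00416) passed it in that set, which it had not with all 15 mice.

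Slc40a1 moved against the position score (Pearson's r = -0.88, Spearman's rho = -0.91, permutation p = 2e-05 and 1e-05, adjusted p = 0.000427 and 0.00064). In words, tissue pieces with a higher proximal less distal score held less ferroportin mRNA. The proximal part ran from -2.15 to 1.67 over the mice and the distal part only from -0.71 to 0.31. The composite thus follows mainly the proximal markers, and a relation to the distal markers alone was not tested. Low PAC mouse 2, with the most Slc40a1 at 34.7 FPKM, had the lowest position score of all 15 mice (-2.35), and water mouse 5, with the least Slc40a1, had the highest (2.38). Without the 2 mice with the most extreme Slc40a1 values, r was -0.82, and over the 15 sets that left out 1 mouse it ran from -0.91 to -0.83. The position score itself ran from -0.44 to 2.38 in water, from -2.35 to 0.81 in low PAC and from -1.44 to 0.74 in high PAC. The 3 ranges overlapped. The score rests on expression, and none of its 4 proximal markers passed the adjusted threshold in either PAC group. In high PAC the log2 fold change from water was -2.48 for Gata4, -1.77 for Lct, -1.17 for Apoa4 and 0.46 for Fabp1 (edgeR adjusted p = 0.211, 0.352, 0.162 and 0.630). In low PAC it was -1.42, -1.08, -0.87 and -0.13 in the same order (edgeR adjusted p = 0.976 for the first 3 and 0.989 for Fabp1). Position and the level of these genes cannot be told apart in the score, and the part of position in the group difference of Slc40a1 was not tested.

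Cybrd1 moved with smooth muscle markers (Acta2, Myh11, Des, Tagln, Cnn1, Actg2), with r = 0.89 and rho = 0.87 (permutation p = 1e-05, the smallest that 100000 permutations can give, and 5e-05, adjusted p = 0.000427 and 0.00107). Its correlation with the enterocyte score was 0.05. Water mice 1 and 3, with the 2 lowest Cybrd1 values, had the 2 lowest smooth muscle scores (-1.30 and -1.51). Without the 2 mice with the most extreme Cybrd1 values r stayed at 0.89, and with 1 mouse left out it ran from 0.86 to 0.92.

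Tfrc moved with proliferating cell markers (Mki67, Top2a, Ccnb1, Cdk1, Ccna2, Birc5), with r = 0.89 and rho = 0.90 (permutation p = 2e-05 and 4e-05, adjusted p = 0.000427 and 0.00107). High PAC mouse 3, with the most Tfrc (57.4 FPKM), had the highest proliferation score, 0.49. Water mouse 1, the lowest of its group in Tfrc at 31.1 FPKM, had the lowest score of all, -0.46. High PAC mouse 5 and low PAC mouse 3 had less Tfrc (29.4 and 30.2 FPKM), with scores of -0.098 and -0.29. Without the 2 mice with the most extreme Tfrc values r was 0.87, and with 1 mouse left out it ran from 0.86 to 0.92.

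Epas1 moved the opposite way to the same proliferation score (r = -0.70, rho = -0.80, permutation p = 0.00257 and 0.0005, adjusted p = 0.0329 and 0.008). Without the 2 mice with the most extreme Epas1 values r was -0.67. It missed the threshold when high PAC mouse 3 or high PAC mouse 5 was left out (r = -0.65 and -0.67), and when group means were not subtracted (r = -0.57, adjusted permutation p = 0.116). Among the 28 pairs of the 8 genes, Tfrc and Epas1 were the only pair past the threshold (r = -0.75, rho = -0.81, permutation p = 0.00113 and 0.00045, adjusted p = 0.0316 and 0.0126 over 28 pairs). Without the 2 mice with the most extreme Tfrc values r fell to -0.55, and the pair missed the threshold on leaving out any of 5 single mice, with r between -0.75 and -0.60.

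**Figure D3:**
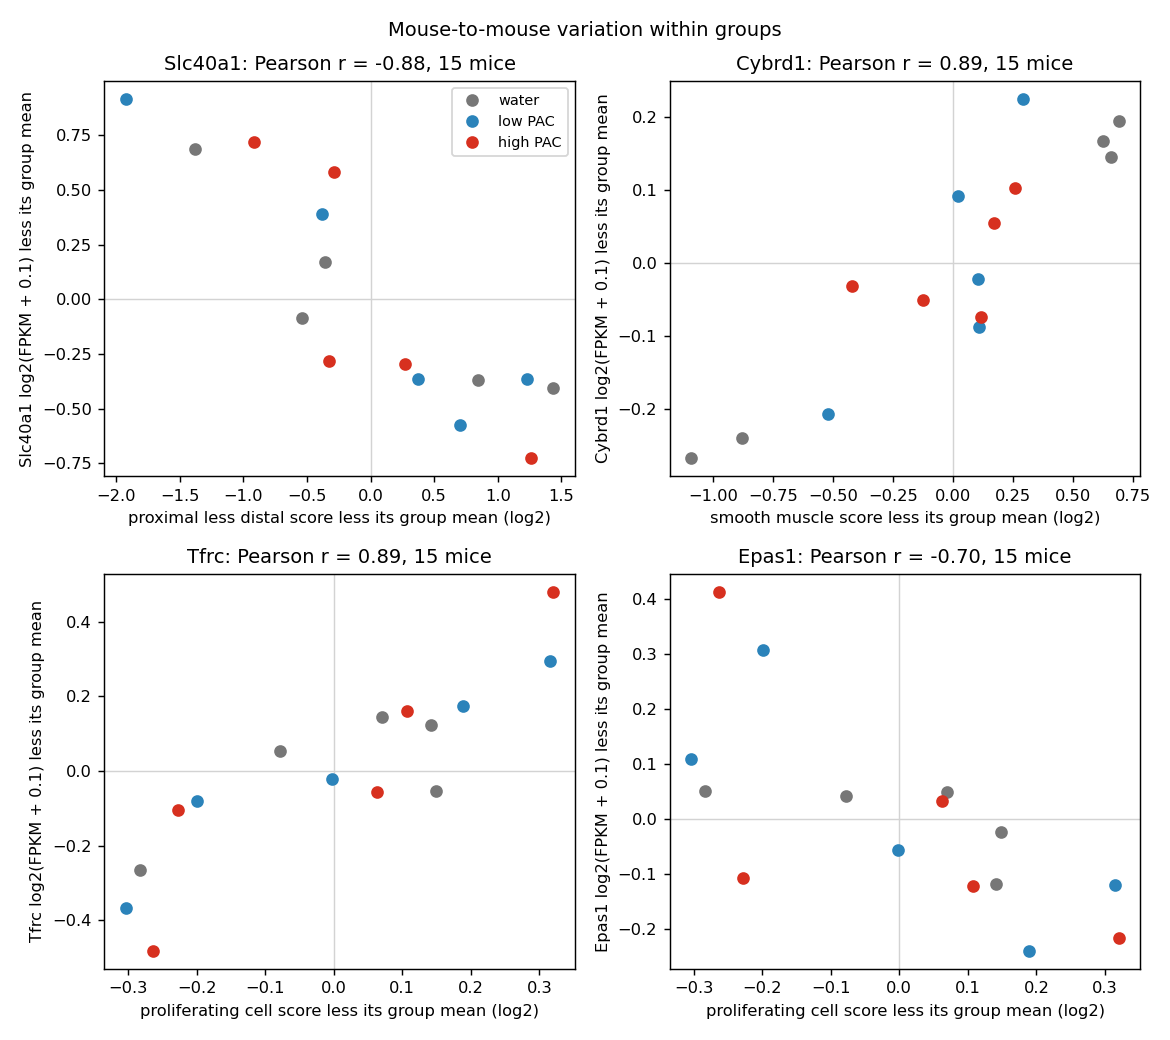
Log2(FPKM + 0.1) of 4 genes (vertical axes) against a marker score (horizontal axes), both less their group mean, for 15 mice coloured by group. Slc40a1 falls as the proximal less distal score rises (r = -0.88), Cybrd1 rises with smooth muscle (0.89), Tfrc rises with proliferating cells (0.89) and Epas1 falls with them (-0.70).

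The remaining 6 of the 10 relations missed the threshold without high PAC mouse 3. Ftl1 moved with erythroid markers (r = 0.80, rho = 0.74, permutation p = 0.0004 and 0.00246, adjusted p = 0.0064 and 0.0315). Without high PAC mouse 3 its r was 0.68 and its adjusted p 0.108. For Heph with enterocyte markers r was 0.75 with that mouse and 0.31 without it, and for Heph with erythroid markers it was -0.67 and -0.39. For Fth1 with macrophage markers r was 0.71 with the mouse and 0.32 without it. For Ftl1 it was 0.69 and 0.45 with macrophage markers and 0.68 and 0.53 with endothelial markers. With that mouse the permutation p of these 5 ran from 0.00379 to 0.00552 by Pearson's r (adjusted p = 0.0353 for each), and by Spearman's rho (between -0.51 and 0.66) no adjusted p was under 0.05. Without the 2 mice with the most extreme values of each gene, r ran from -0.24 to 0.54. Each of the 5 also missed the threshold on leaving out other single mice, in 3 to 10 of the 15 sets in all. Slc11a2 passed the threshold with no score, its r lying between -0.39 and 0.31.

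**Figure D4:**
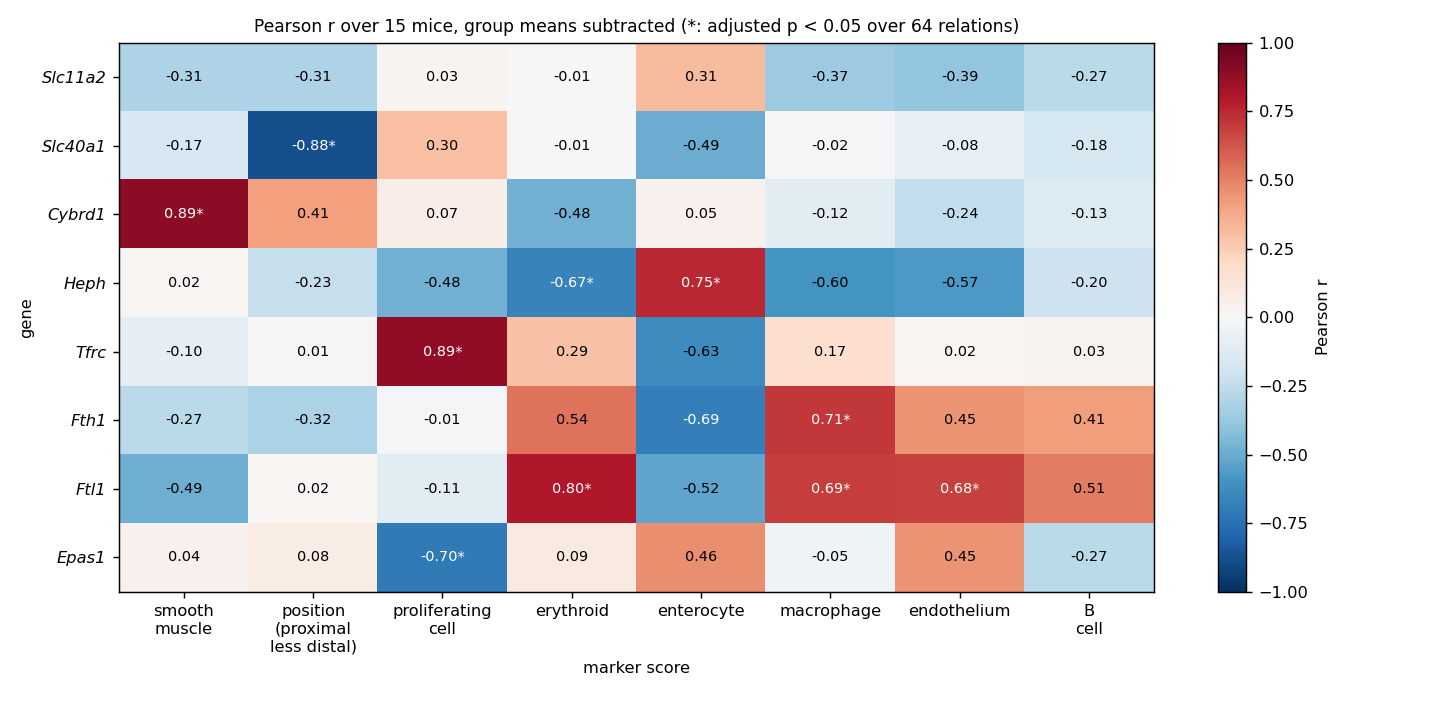
Pearson's r between each of the 8 genes (rows) and each of the 8 marker scores (columns) over 15 mice, group means subtracted, with a star where the adjusted p over 64 relations was under 0.05. Slc40a1, Cybrd1 and Tfrc each have 1 starred relation of about 0.9 in size, with position, smooth muscle and proliferating cells.

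The genes whose pattern over the 15 mice was most like each of the 8 were named from the 3 with the highest Pearson's r of all genes tested, group means subtracted, which is a description and no test. For Slc40a1 they were Tat (0.96), Endod1 (0.93) and Galnt3 (0.93), and for Heph Mpp5 (0.96), Fam8a1 (0.96) and Sec23a (0.94). For Tfrc they were Pclaf (0.95) and Cep55 (0.93), the first a PCNA-associated factor and the second a protein of the midbody in cell division. For Cybrd1 they were Ak1 (0.93), Nrxn2 (0.92) and the homeobox gene Hoxa5 (0.92). For Fth1 they were Fmc1, Atp5g3, a subunit of mitochondrial ATP synthase, and Guk1 (0.93 each), and for Ftl1 Grcc10 (0.94), Aamp (0.93) and Oaz1 (0.93). For Epas1 (Plod1 0.87, Plpp3 0.86) and Slc11a2 (Trim15 0.84, Nos2 0.81, Tcf7l2 0.79) the likeness was lower.

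Around the 8 genes, 67 other iron genes in 7 lists were read from the same fit. Of these 66 were listed and 60 were tested. The hepatic hormone genes Hamp and Hamp2 and also Tfr2, Ltf, Hjv and Tmprss6 fell below the filter. None of the 60 passed an adjusted p of 0.05 in any comparison by edgeR, DESeq2 or limma. At an unadjusted edgeR p under 0.05, 14 of the 60 (23.3%) differed between high PAC and water, 4 higher and 10 lower, beside 14.8% of all genes. Between low PAC and water 3 of 60 (5.0%) did, beside 3.61%, and between high and low PAC 4 of 60, beside 3.89%. The direction depended on scaling. Upper quartile normalization turned the 4 higher and 10 lower into 10 higher and 2 lower, as it turned the 628 higher and 1500 lower of all genes into 1505 and 816. Testing log2(FPKM + 0.1) with limma gave 11 higher and 1 lower, and 2269 and 528 among all genes.

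Iron storage and sensing genes were abundant. Pcbp2 (125 FPKM over 15 mice) and Pcbp1 (118), cytosolic iron chaperones that deliver iron to ferritin, were the highest of the 67, followed by the mitochondrial importer Slc25a37 (70.1), the hypoxia-responsive Ndrg1 (48.2) and Aco1 (45.7 FPKM), which encodes iron regulatory protein 1. All 6 tested genes of the storage and sensing list had a negative fold change in high PAC against water (median -0.11), 3 of them at an unadjusted p under 0.05, where 10.4% of all genes were lower at that p. Under upper quartile normalization the list split into 3 higher and 3 lower (median -0.05), and 0 of the 6 had an unadjusted p under 0.05 by upper quartile, by limma on FPKM or with no filter. Ncoa4, the receptor for ferritin breakdown, was at 37.5 ± 1.05 (SD, n = 5) in water and 35.2 ± 2.21 FPKM in high PAC (log2 fold change -0.19, edgeR unadjusted p = 0.0228, adjusted p = 0.276). Ireb2, iron regulatory protein 2, was at 25.1 ± 2.25 and 23.4 ± 1.26 FPKM (-0.19, edgeR unadjusted p = 0.029, adjusted p = 0.294). Both differences were smaller without high PAC mouse 3, -0.12 for Ncoa4 and -0.13 for Ireb2.

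Of the 13 tested genes of the other entry, export and transferrin list, 9 had a positive and 4 a negative fold change in high PAC against water (median 0.14). Steap3, the ferrireductase of the transferrin cycle, had the smallest p of the 60. It was at 5.38 ± 0.41 (SD, n = 5) in water, 6.73 ± 1.201 in low PAC and 7.25 ± 1.02 FPKM in high PAC, with all 5 high PAC mice and 4 of 5 low PAC mice above every water mouse. The log2 fold change was 0.34 in high PAC (SE 0.12, edgeR unadjusted p = 0.0104, adjusted p = 0.247) and 0.27 in low PAC (SE 0.12, edgeR unadjusted p = 0.0335, adjusted p = 0.976). Without high PAC mouse 3 the high PAC value was 0.29. Steap3 was 1 of 4 genes of the 60 (6.67%) whose high PAC and water ranges did not overlap, beside 4.64% of all genes. The others were Blvra and, named after their values were seen, Steap2 and Lyrm4. Slc39a14, the zinc and iron transporter ZIP14, was at 23.6 ± 1.26 in water and 21.2 ± 2.69 FPKM in high PAC (-0.25, edgeR adjusted p = 0.265), and its log2 fold change was -0.13 without high PAC mouse 3.

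Among 15 heme genes, 10 had a positive and 5 a negative fold change in high PAC (median 0.0081). Blvra, biliverdin reductase A, was at 11.7 ± 0.66 (SD, n = 5) in water, 12.4 ± 1.15 in low PAC and 14.8 ± 1.23 FPKM in high PAC, with a log2 fold change of high PAC against water of 0.24 (SE 0.08, edgeR unadjusted p = 0.0118, adjusted p = 0.25). Urod, uroporphyrinogen decarboxylase, was at 12.3 ± 0.97 and 15.5 ± 2.40 FPKM in water and high PAC (0.24, edgeR adjusted p = 0.291). Flvcr1, a heme exporter, was at 24.2 ± 2.43 and 19.9 ± 3.10 FPKM (-0.38, edgeR adjusted p = 0.266), and its log2 fold change was -0.25 without high PAC mouse 3. Alas1, the first enzyme of heme synthesis, was at 32.7 ± 2.04 and 30.0 ± 1.48 FPKM (-0.22, edgeR adjusted p = 0.266). Without high PAC mouse 3 the log2 fold change of Alas1 was -0.16.

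The HIF pathway and hypoxia response lists gave no call either. Hif1a, the paralogous hypoxia factor, was at 20.1 ± 0.94 (SD, n = 5) in water, 18.3 ± 1.03 in low PAC and 18.6 ± 2.70 FPKM in high PAC. Its log2 fold change was -0.21 in high PAC (edgeR unadjusted p = 0.0167, adjusted p = 0.266) and -0.18 in low PAC (edgeR unadjusted p = 0.0339, adjusted p = 0.976). With upper quartile normalization its unadjusted edgeR p was 0.0881 in high PAC and 0.0798 in low PAC. Of the 6 HIF partners 4 had a negative fold change in high PAC (median -0.049), as had 7 of 10 hypoxia response genes (median -0.05). Under upper quartile normalization both medians were positive, at 0.016 and 0.017, and 0 genes of either list had an unadjusted p under 0.05 in high PAC. Vegfa, a hypoxia-induced growth factor, was at 39.3 ± 3.49 in water and 33.5 ± 7.25 FPKM in high PAC (-0.33, edgeR unadjusted p = 0.0324, adjusted p = 0.300), and its log2 fold change was -0.17 without high PAC mouse 3. The 8 mitochondrial iron genes had a median of 0.046 in high PAC against water. None there had an unadjusted p under 0.05 by edgeR with TMM, and 3 (all higher) did with upper quartile normalization. In high against low PAC, 2 of the 8 (both higher) had an unadjusted edgeR p under 0.05, beside 3.89% of all genes. The 2 tested systemic regulators had a median of -0.059 in high PAC against water, which was 0.002 with upper quartile normalization.

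**Figure D5:**
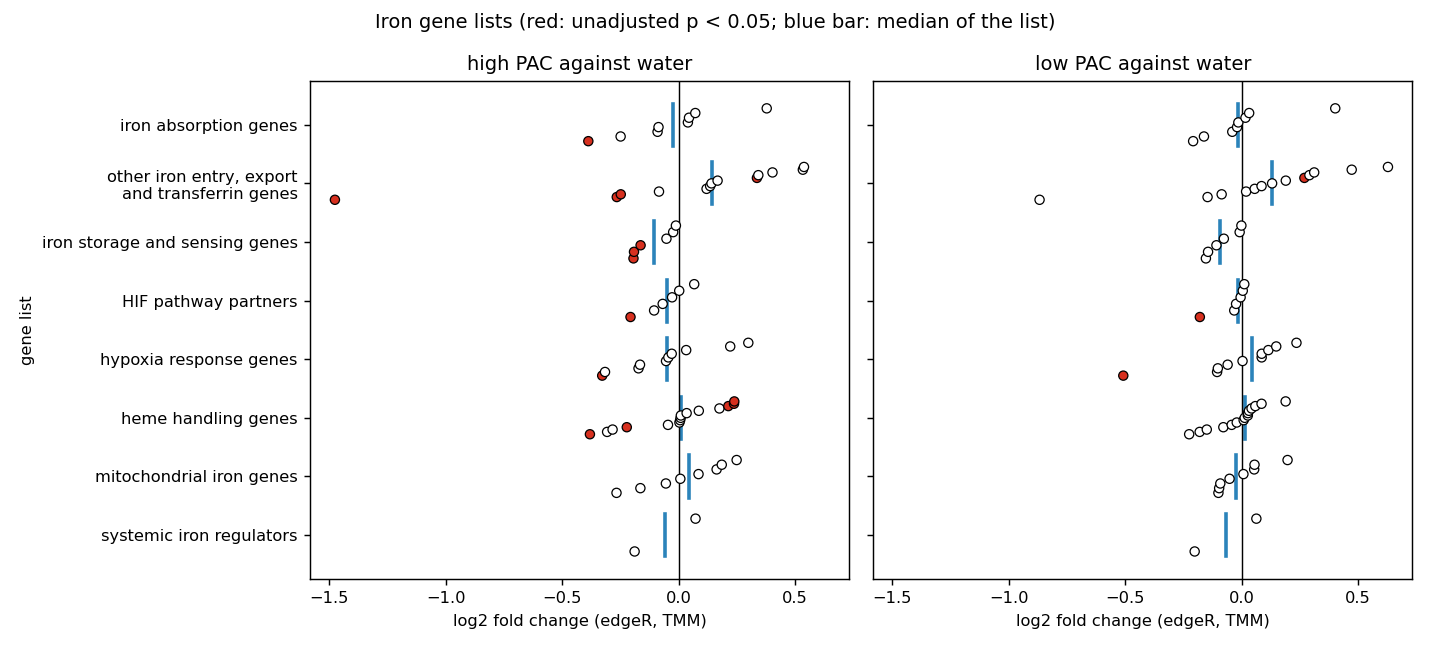
Log2 fold change (edgeR, horizontal axes) of each tested gene of the 8 iron absorption genes and the 7 other iron lists, in high PAC against water (left) and low PAC against water (right), red where the unadjusted p was under 0.05 and with a blue bar at the list's median. The medians lie between -0.11 and 0.14 in both panels, and no point passed the adjusted threshold; the point at -1.48 is Meltf, at a mean of 0.413 FPKM.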

How the data were processed

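Ileal RNA of 15 mice (water, low PAC and high PAC, 5 each) was sequenced as paired-end reads, cleaned with SOAPnuke and mapped to mm10 with Bowtie2 per the study's methods. The submitters' processing notes also name HISAT and DESeq2, and the counting tool is not given in the sources used here. The authors deposited, for each mouse, 1 row per gene with the expected count (an estimated count, whole in 88.6% to 89.5% of rows) and the FPKM (scaled by the authors to transcript length and library depth). Groups and mouse numbers were taken from the labels. Each library is 1 mouse, and the caging is not given in the sources used here.

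Expected counts were rounded and tested in 1 model of all 15 mice with edgeR 4.0.16 (R 4.3.3; TMM, filterByExpr, quasi-likelihood test, Benjamini-Hochberg over 14386 genes, threshold 0.05), since the NOISeq analysis of the study gives no standard errors. Single FPKM values were tested on log2(FPKM + 0.1) by two-sided exact permutation over all 252 splits. Relations across mice used 100000 permutations with group means subtracted (scipy 1.17.1). Alternatives were upper quartile and DESeq2 size factors, DESeq2 1.42.0, limma 3.58.1 on log2(FPKM + 0.1), no filter, only the 2 groups compared, a replicate block, and each of 15 mice left out. The edgeR step was tested on simulated data. IREs were read from GENCODE transcripts of GRCm38.

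The 8 genes and the gene lists were chosen with earlier results of these data known. Named besides the 8 genes were the 10 other iron genes with the smallest p against water, the 5 with the highest mean FPKM, and the 3 genes most like each of the 8, of which some are not reported here.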

Additional observations from a re-analysis of the deposited data

Results flagged for a closer look

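Fth1 in high PAC mouse 3 stood apart, at 1307 FPKM, from the other 4 high PAC mice, which lay between 990.1 and 1047 FPKM. Its gap to the nearest of them was 0.821 of the range of the group, above Dixon's 95% critical value of 0.71 for 5 values. The 8 genes in 3 groups gave 24 such groups, and chance flags about 1 in 20. The same mouse had the highest macrophage score, 0.41, and the highest erythroid score, 1.55, and their part in its Fth1 level was not tested.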

How the results depend on the processing

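None of the 8 genes and none of the 60 other iron genes passed an adjusted p of 0.05 in any of the 3 comparisons, with edgeR, DESeq2 or limma or with any 1 mouse left out. Over all genes, 2 were called in high PAC against water by edgeR, 112 by DESeq2, 9 by limma on log2(FPKM + 0.1), 4 with only the 2 groups compared, and 2 to 11 with 1 mouse left out (4 without water mouse 2, 11 without high PAC mouse 2). In low PAC against water the counts were 0 by edgeR, 2 by DESeq2 and 0 to 1 with 1 mouse left out (1 without low PAC mouse 2). The cause was not tested. Exact permutation in high PAC against water put 1 of the 8 genes under 0.05, and 0 to 2 with 1 mouse left out. Without subtracting group means, 3 pairs in place of 1 and 5 marker relations in place of 10 passed 0.05. With 1 mouse left out the ranges were 0 to 2 and 4 to 12.

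Signs of small log2 differences turned under some settings. In low PAC against water, Cybrd1 was 0.013 by upper quartile, 0.041 by limma, 0.0028 with no filter and 0.0080 with only 2 groups, and Fth1 was 0.014, 0.030, 0.0024 and 0.0077 under the same 4. Ftl1 was 0.016 by limma there, and Cybrd1 was 0.014 by limma in high PAC against water. In high against low PAC, Slc40a1 was 0.0074 by upper quartile, 0.033 by limma and 0.053 with the replicate block. With 1 mouse left out, differences that changed sign ran, in low PAC against water, from -0.077 to 0.059 for Cybrd1, from -0.059 to 0.046 for Fth1, from -0.091 to 0.027 for Ftl1, from -0.042 to 0.098 for Tfrc and from -0.043 to 0.092 for Epas1. In high PAC against water they ran from -0.027 to 0.18 for Tfrc, from -0.0061 to 0.11 for Ftl1 and from -0.20 to 0.0064 for Epas1. In high against low PAC they ran from -0.24 to 0.30 for Slc40a1, from -0.061 to 0.16 for Tfrc and from -0.0012 to 0.10 for Fth1.

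Mouse numbers did not pair the groups: deviations of same-numbered mice correlated above 0.1 in 2 of 5 pairs (water and low PAC), 3 of 5 (water and high PAC) and 0 of 5 (low and high PAC), and in 5 of 30 checks a mouse correlated best with its own number. With the number as a replicate block, 2 genes were called in high PAC against water, 0 in the other comparisons and 0 of the 8 in any. Heph and Slc11a2, both lower in high PAC than in water, were then under an unadjusted 0.05 by edgeR, as were 12.8% of all genes (8.88% lower).

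With 5 mice per group, a log2 standard error of 0.09 to 0.15 for 7 genes and 0.33 for Slc40a1 limited what could be seen.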
